A study of Mus musculus with 18 samples.

Results

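Microglia are the resident macrophages of the central nervous system, and 9 genes that mark them or encode their complement proteins were followed through RNA-Seq of sorted spinal motor neurons (MNs) of the mouse. All 9 were found at postnatal day 8 (p8), where together they held 0.0733% of the summed expression signal, against 0.00121% at the embryonic stage e12.5. The share of the summed signal was 12.52 to 126 times higher at p8 than at e12.5 in the 8 genes that could be compared. The ratio was 31.2 to 314 with a median of ratios scaling and 23.9 to 241 without the genes of highest base mean. It was 37.6 to 379 with shares among genes with 1 transcript row, an alternative added after the data were seen. The samples of the stages also differ in the reporter used for sorting. Csf1r, the receptor through which microglia receive their survival signal, stood highest per kilobase of exons at p8. By that measure the 3 chains of C1q, which starts the classical complement cascade, were among the next 4. The genes are Csf1r, Cx3cr1, P2ry12, Tmem119, Trem2, Aif1, C1qa, C1qb and C1qc. They were picked by name from 27179 genes, matched by Entrez identifier in the tables counted per gene and by RefSeq transcript in the table counted per transcript, where the row of highest base mean stood for each symbol. In that last table the 9 genes have 10 transcript rows.

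Microglia arise from yolk sac macrophages that enter the neural tube early in development, and they survive there through CSF1R and its ligands. In the healthy cord they are recognised by receptors such as P2RY12 and CX3CR1, with which they sense nucleotides and a neuronal chemokine. The C1q complex that they secrete tags synapses and debris for removal.

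The series holds 18 samples. At p8, tdTomato-positive cells of Chat-IRES-Cre::Ai9 mice were sorted from the brachial (3 samples), thoracic (3) and lumbar (3) cord. At e12.5, GFP-positive brachial cells carrying Mnx1-GFP were sorted from Hoxc8 MNΔearly embryos (3 samples), in which Olig2-Cre deletes floxed Hoxc8 alleles in MN progenitors, and from controls labelled wildtype (6 samples). Chat-IRES-Cre switches on tdTomato in any cholinergic cell and its descendants, and Mnx1-GFP reports an MN homeodomain gene. Several cords were pooled per replicate of the Chat-IRES-Cre::Ai9 mice and of the Mnx1-GFP embryos, and for the mutants pooling is not stated in the sources used here. Dead cells were excluded by DAPI. For the comparison of mutants with controls, the paper dissected segments C7-T2 and names the controls Hoxc8 fl/fl. For the comparison of stages it dissected segments C4-T1.

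The deposited tables hold 1 level per gene, the base mean, which is the mean over all libraries of a table of the read count divided by the library's size factor. No table gives a value per sample, and the fold changes and p-values of the authors' own comparisons were not used. Levels are therefore given without SD or test, and the regions at p8 and the genotypes at e12.5 are not told apart below. The 3 regional tables hold the same base means in all 27179 rows and serve as 1 level, called the p8 pool. The table of embryonic against postnatal brachial MNs gives a mean over both stages, called the stage pool. The table of mutants against controls, counted per transcript, gives the e12.5 pool. Summed base means were 17963281 in the p8 pool, 22335833 in the stage pool and 13384207 in the e12.5 pool. The depth per library is not known for the p8 and stage pools. The labels do not say which libraries entered a table, so the pools are described by the comparison each table is named for. Among low base means, 6 recurring values of a single read were found in the p8 pool, where the labels list 9 samples. There were 8 in the stage pool and 6 in the e12.5 pool. Rarer values were not counted, and only those of the e12.5 pool were checked. The number of libraries in the p8 and stage pools is therefore not known from them.

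The sorted cells were checked against their label. Chat, the enzyme that makes acetylcholine, had a base mean of 14.1 in the p8 pool, against 253 in the e12.5 pool, and the MN factor Mnx1 had 0.696 at p8, against 3970.3 at e12.5. Lhx3, another MN factor, was listed at 0 at p8. Of the 6 MN genes with 1 transcript row, 5 were at least 4-fold lower in share at p8, as were 44% of all such genes with signal in both pools. The exception was Slc5a7, the choline transporter, with 165 at p8 and 282 at e12.5, a ratio of shares of 0.435. Some other genes of the MN and pan-neuronal lists stood well above 0 at p8. Foxp1, a factor of limb-innervating MNs, had 493, the intermediate filament gene Prph had 443 and the neurofilament gene Nefl had 14103. Others did not, such as the MN factors Isl1 with 2.67 and Isl2 with 0.0406. Median base means at p8 were 16.5 over 10 MN genes and 320 over 10 pan-neuronal genes. Foxp1 and Prph have 4 and 3 transcript rows at e12.5, so no ratio is given for them. Genes of other cell types stood high at p8: 10 oligodendrocyte genes held 43.6% of the summed base mean, against 0.00747% at e12.5, and 8 neutrophil genes held 1.18%, against 0.000037%. The p8 pool is therefore described below by the labels of its libraries and not as a pure MN population. What part these cells have in the microglia values was not tested.

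The microglia genes lie on 6 chromosomes in GRCm38. The 3 C1q genes sit side by side on chromosome 4, C1qb at chr4:136880126-136886200, C1qc at chr4:136889801-136892936 and C1qa at chr4:136895916-136898844, all within 18719 bases. Trem2 (chr17:48346401-48352276) and Aif1 (chr17:35170986-35176083) share chromosome 17. The others are Csf1r, Cx3cr1 (chr9:120048683-120068296), P2ry12 (chr3:59216271-59262985) and Tmem119 (chr5:113793729-113800396). These positions are from the RefSeq annotation of GRCm38.p6.

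Since these genes stood high in the same pool, their promoters were read for the core of the site bound by PU.1, the myeloid transcription factor encoded by Spi1. RefSeq promoters of GRCm38.p6 were searched for 6 of the 9 genes. No promoter was at hand for C1qa and Tmem119. Csf1r was left out of the search by choice, so whether its promoter holds a match is not given here. The 250 bases before each start were searched on both strands for the 6 letters GAGGAA, which reads TTCCTC on the other strand. No other motif was searched. A match was found for 4 of the 6 genes, while 23.3% of the 32851 promoters searched held at least 1. A match is a run of letters and not a shown binding site. The 4 promoters are printed because they are those with a match, 5′ to 3′ on the gene's own strand, with the match in capitals. That of C1qb lies at chr4:136886201-136886450, minus strand, with the match 30 bases before the start. That of C1qc lies at chr4:136892915-136893164, minus strand, with the match 193 bases before the start. Trem2 is at chr17:48346151-48346400, plus strand, with the match at 40 bases, and Aif1 at chr17:35176053-35176302, minus strand, with the match at 7 bases. The start is the one used in the promoter table. For Aif1 and C1qc it lies inside the span of the gene given above, and the Aif1 match falls within that span.
C1qb: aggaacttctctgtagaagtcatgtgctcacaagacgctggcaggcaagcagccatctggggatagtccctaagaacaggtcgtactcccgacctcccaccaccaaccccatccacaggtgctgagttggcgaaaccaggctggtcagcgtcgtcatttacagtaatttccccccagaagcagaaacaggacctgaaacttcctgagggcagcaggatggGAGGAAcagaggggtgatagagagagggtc
C1qc: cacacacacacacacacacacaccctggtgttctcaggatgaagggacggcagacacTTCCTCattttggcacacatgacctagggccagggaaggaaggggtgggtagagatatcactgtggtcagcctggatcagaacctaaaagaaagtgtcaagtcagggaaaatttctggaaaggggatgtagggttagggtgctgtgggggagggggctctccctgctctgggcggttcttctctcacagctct
Trem2: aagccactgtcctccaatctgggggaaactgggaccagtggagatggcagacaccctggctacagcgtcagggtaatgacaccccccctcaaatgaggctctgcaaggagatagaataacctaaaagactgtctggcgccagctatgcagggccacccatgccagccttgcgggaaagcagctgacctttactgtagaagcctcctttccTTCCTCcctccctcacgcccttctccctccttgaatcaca
Aif1: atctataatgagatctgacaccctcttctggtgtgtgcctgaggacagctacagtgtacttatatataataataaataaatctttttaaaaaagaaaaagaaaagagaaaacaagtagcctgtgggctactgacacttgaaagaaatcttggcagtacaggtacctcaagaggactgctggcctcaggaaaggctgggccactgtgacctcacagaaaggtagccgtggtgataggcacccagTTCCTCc

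The promoters of Cx3cr1 and P2ry12 held no match in this window.

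All 9 genes were detected in the p8 pool. Among the receptors, Csf1r (chr18:61105572-61131139), the tyrosine kinase receptor for CSF1 and IL-34, had a base mean of 5824 in the p8 pool, 4455 in the stage pool and 47.6 in the e12.5 pool. Cx3cr1, the fractalkine receptor, had 1839.8 in the p8 pool, 1130.0 in the stage pool and 24.4 in the e12.5 pool. P2ry12, a G protein-coupled receptor for ADP that microglia use to extend processes to damage, had 1385 in the p8 pool, 513 in the stage pool and 8.18 in the e12.5 pool. Thus each of these receptors was highest in the p8 pool and lowest in the e12.5 pool, with the mixed pool between. Trem2, the lipid and lipoprotein receptor that signals through the adaptor TYROBP, had 262 in the p8 pool and 124 in the stage pool. In the e12.5 pool both transcript rows of Trem2 were listed at 0.

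The remaining identity genes had the same order. Tmem119, a transmembrane protein that separates microglia from blood-derived macrophages, had 910.0 in the p8 pool, 448 in the stage pool and 23.2 in the e12.5 pool. Aif1, which encodes the actin-binding protein IBA1 used to stain microglia, had 77.9 in the p8 pool, 32.6 in the stage pool and 4.63 in the e12.5 pool. For both, the p8 pool was highest and the e12.5 pool lowest.

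C1qa, C1qb and C1qc encode the 3 chains of one complex. C1qa had 870.0 in the p8 pool, 450.0 in the stage pool and 11.7 in the e12.5 pool. C1qb had 528 in the p8 pool, 196 in the stage pool and 24.6 in the e12.5 pool. C1qc had 1474 in the p8 pool, 735 in the stage pool and 18.2 in the e12.5 pool. All 3 chains were lowest in the e12.5 pool, but their order changed: C1qb was the lowest chain at p8 and the highest at e12.5, per kilobase as well.

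**Figure D1:**
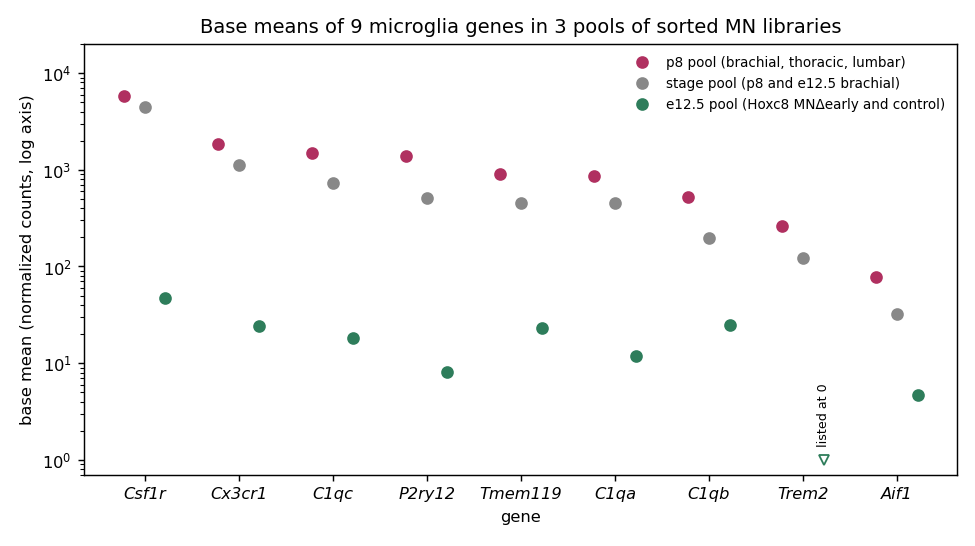
Base mean (normalized counts, log axis) of each of the 9 microglia genes in the p8 pool (red), the stage pool of p8 and e12.5 brachial libraries (grey) and the e12.5 pool (green). Each point is 1 deposited mean over libraries with no error bar, and the open triangle is Trem2, listed at 0 at e12.5. The p8 points run from 77.9 (Aif1) to 5824 (Csf1r), and every gene above 0 at e12.5 lies at or below 47.6.

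Base means of different genes can be set side by side only per length, so each was divided by the length of its exons in kilobases (GENCODE M21, GRCm38) and, for the e12.5 pool, by the length of its transcript. In the p8 pool the order per kilobase was Csf1r with 1009, C1qa with 837, C1qc with 763, P2ry12 with 544, C1qb with 486, Cx3cr1 with 408, Tmem119 with 393, Trem2 with 53.0 and Aif1 with 50.8. There is a gap between Tmem119 and Trem2, and the 7 genes above it stand from 393 to 1009. Trem2 has 4946 bases of exons, but its transcript used at e12.5 has 1056, so the size of the gap depends on the length used. No spread over samples is known, so it cannot be said which neighbours in this order differ. Of every 1000000 units of length-scaled signal, Csf1r took 238 in the p8 pool, while the median gene above 0 took 5.42. Csf1r stood at the 97.3 percentile of genes above 0 in that pool, C1qa at 96.8, C1qc at 96.4, and Trem2 and Aif1 at 66.2 and 65.5. The median gene of the 9 was at the 94.1 percentile in the p8 pool, at 76.8 in the stage pool and, over the 8 genes above 0, at 43.0 in the e12.5 pool.

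In the e12.5 pool the order per kilobase was another one. C1qb led with 22.6, followed by C1qc with 15.1, Csf1r with 12.3, C1qa with 11.3, Tmem119 with 10.3, Cx3cr1 with 6.51, Aif1 with 5.30 and P2ry12 with 3.63. P2ry12 thus held the fourth place at p8 and the last of the genes above 0 at e12.5, and C1qb held the fifth place at p8 and the first at e12.5. The orders rest on different lengths, for Cx3cr1 4505 bases at p8 and 3753 at e12.5, so places in them are not strictly comparable. Per 1000000 units of length-scaled signal, the e12.5 levels ran from 0.862 for P2ry12 to 5.36 for C1qb, with 5.14 for the median gene of that pool.

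The next comparison asks how much more of the signal these genes took at p8. The pools were normalized apart, so for each gene the share of the summed base mean in the p8 pool was divided by that in the e12.5 pool, with a 95% interval that covers only the counting error of the reads at e12.5. P2ry12 had a ratio of 126 (94.3 to 173), Csf1r of 91.2 (80.7 to 103) and C1qc of 60.3 (49.6 to 74.2). Those 3 genes span a homeostatic receptor, a growth factor receptor and a complement chain. Cx3cr1 had a ratio of 56.1 (47.3 to 66.9), C1qa of 55.3 (43.3 to 71.8) and Tmem119 of 29.2 (24.6 to 35.1). At the low end were C1qb with 16.0 (13.5 to 19.1) and Aif1 with 12.52 (8.55 to 19.2). Within the C1q complex, the intervals of C1qa and C1qc overlap, and that of C1qb lies below both. Intervals on reads say nothing of the spread between mice.

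The share of 8 of 8 genes was at least 4-fold higher at p8, against 11.1% of the 11602 genes with 1 transcript row and signal in both pools. The median of the 8 ratios was 55.7, and the median of those 11602 genes was 0.315, a log2 ratio of -1.67. Another 44% of them were at least 4-fold lower at p8. Leaving out the 42 genes that rank among the highest in any pool, oligodendrocyte transcripts such as Mbp among them, gave a median of 106 for the 8. Scaling by the median of ratios moved the 8 ratios to between 31.2 and 314, and shares among genes with 1 transcript row moved them to between 37.6 and 379. Less signal at e12.5 can come from fewer microglia among the sorted cells or from less RNA of these genes per cell, and in bulk samples the alternatives cannot be told apart. The p8 and e12.5 pools also differ in reporter and sort, in region, in genotype and in counting per gene or per transcript. None of these can be told apart from stage.

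Trem2 was left out of these ratios because a value of 0 in a table counted per transcript need not mean an absence of reads. Among genes whose p8 base mean reached 500, those with 1 transcript row were listed at 0 at e12.5 in 18 of 2360 cases (0.763%). Those with 2 rows were so in 103 of 734 (14.0%) and those with 3 or more in 169 of 758 (22.3%). Trem2 has 2 rows, and the other 8 genes have 1 row each.

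**Figure D2:**
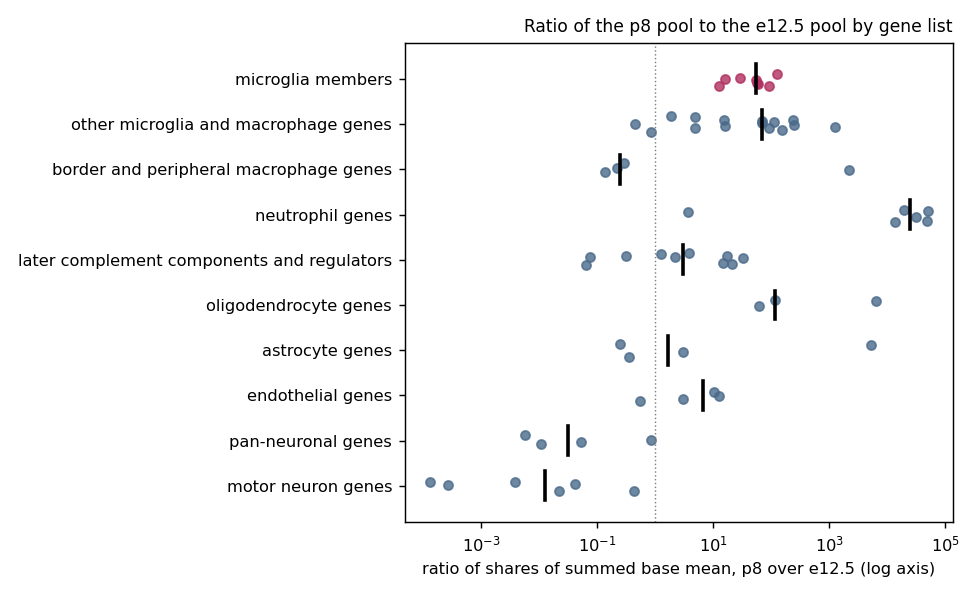
Ratio of shares of the summed base mean, p8 pool over e12.5 pool (log axis), for genes with 1 transcript row and signal in both pools. Each point is 1 gene, the black bar is the median of its list, and the dotted line marks a ratio of 1. The 8 microglia genes lie from 12.52 to 126, with a median of 55.7 beside 68.1 for other microglia and macrophage genes, 0.252 for border and peripheral macrophage genes and 0.0129 for MN genes.

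Low base means at e12.5 could be read back to whole reads. A gene with a single read takes 1 of 6 fixed values in that table, 1 for each library, so a low base mean is a sum of those steps, and all of the 5663 rows with a base mean under 3 had exactly 1 solution. P2ry12 and Aif1 lie above that limit, at 8.18 and 4.63, and each had exactly 1 solution at its own base mean. On simulated low genes 94.3% were recovered. The 6 libraries cannot be matched to control or mutant embryos, and they are numbered here by their step alone. P2ry12 had 7, 4, 7, 9, 9 and 12 reads in libraries 1 to 6, or 48 in all. It was thus found in every library, with 3.62 to 13.2 reads after division by the size factor. Aif1 had 9, 6, 5, 1, 7 and 1 reads, or 29 in all, which is 1.07 to 7.68 after that division. Aif1 was also found in every library, but with a single read in libraries 4 and 6. C1qa has 3 solutions at its base mean of 11.7, and in each of them library 6 holds 0 reads. So the library with the most P2ry12 reads had 1 read of Aif1 and none of C1qa.

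**Figure D3:**
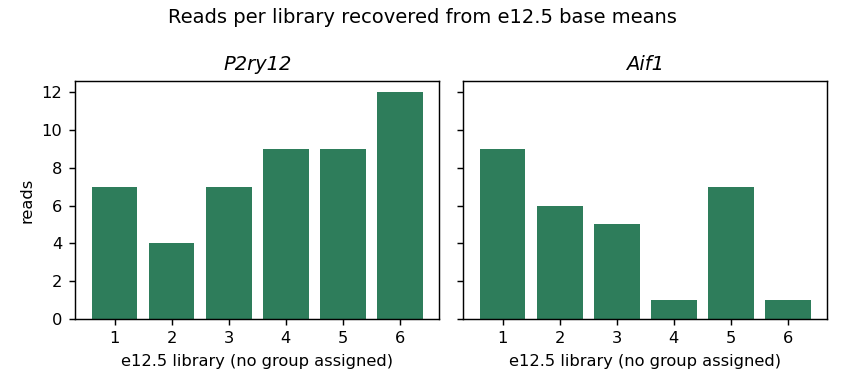
Whole reads of P2ry12 (left) and Aif1 (right) in each of the 6 libraries behind the e12.5 table, in read counts on an axis that starts at 0. The libraries carry no group and are numbered by the size of their 1-read step. P2ry12 runs from 4 to 12 reads and Aif1 from 1 to 9.

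The other members are too high for a single solution, but the same steps bound their reads. Csf1r rested on 260 to 334 reads over the 6 libraries, C1qb on 135 to 173, Cx3cr1 on 134 to 171 and Tmem119 on 127 to 163. C1qc rested on 100 to 128 reads and C1qa on 64 to 82. The 8 genes therefore had at least 891 reads at e12.5 in all. Each of the 8 thus had 26 reads or more at that stage.

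The stage pool allows a comparison among tables counted per gene in the same way. As the tables are named, it shares brachial p8 libraries with the p8 pool, and its other libraries are embryonic, so a ratio of the p8 pool to the stage pool depends on the levels at e12.5 and on how the p8 libraries differ among themselves. The ratio of base means was 1.31 for Csf1r, 1.63 for Cx3cr1 and 1.93 for C1qa. It was 2.005 for C1qc, 2.03 for Tmem119 and 2.12 for Trem2. It was 2.39 for Aif1, 2.69 for C1qb and 2.70 for P2ry12. Hence 9 of 9 genes had a ratio above 1, against 20.9% of the 15282 genes whose base mean reached 10 in either pool. The lowest of the 9, Csf1r, was reached or passed by 12.4% of those genes. The median of the 9 was 2.03, and that of all 15282 genes was 0.559. Csf1r and Cx3cr1 thus lay below the other 7, which lie between 1.93 and 2.70.

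Neutrophil genes are given beside these values, since 8 of them held 1.18% of the summed base mean of the p8 pool. The calcium-binding proteins S100a9 and S100a8 and the granule protein Ngp had base means of 47265, 41915 and 56279 at p8. Their ratio to the stage pool, and that of Lcn2, Ltf and Camp, was 0.609 to 0.610. All 6 of these genes had the same ratio to the second decimal, and all 9 microglia genes lay above it. At e12.5 the base mean of these 6 genes was at most 1.61. Mpo and Elane, also on the neutrophil list, had only 4.07 and 5.33 at p8. Whether neutrophil RNA adds to the levels of the 9 microglia genes was not tested.

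Among 20 other genes of microglia and macrophages, 11 had a p8 to stage ratio above 1 and 9 did not, with a median of 1.06, beside 20.9% above 1 and a median of 0.559 over all 15282 genes. Their ratios ran from 0.634 to 2.47. P2ry13, a second ADP receptor, had 2.47, Gpr34, a lysophosphatidylserine receptor, had 2.33, Siglech, a sialic acid-binding lectin, had 2.14 and Fcrls, an Fc receptor-like protein, had 1.79. The phagocytic receptor gene Mertk had 2.16, Ly86 had 1.63 and the cathepsin gene Ctss had 1.06. Sall1, a transcription factor of microglia, had 0.913. Its base mean at e12.5 was 953, beside 47.6 for Csf1r, the highest of the 9 microglia genes there. Which cells the Sall1 signal comes from was not tested. At the low end, Itgb2, an integrin chain of leukocytes, had 0.634, Spi1 had 0.682, Fcer1g, an Fc receptor chain, had 0.690 and Tyrobp had 0.702. Tyrobp is the adaptor of Trem2, whose own ratio was 2.12. The pools were normalized apart, and the ratios above are of base means. As shares of the summed base mean, Sall1, Cd68, Laptm5 and Hexa passed 1 as well, with 1.14, 1.06, 1.15 and 1.09. The split of 11 to 9 thus depends on the scaling. The genes named here were picked after their values were seen.

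Between the p8 and e12.5 pools, 12 of the 15 other microglia and macrophage genes that could be compared were at least 4-fold higher at p8 and 0 were that much lower, with a median of 68.1. Over all genes with 1 transcript row and signal in both pools, 11.1% were that much higher and 44% that much lower, with a median of 0.315. Cst3 and Tyrobp were among the highest of the list per kilobase at p8. Tyrobp had base means of 1762 at p8 and 5.60 at e12.5, a ratio of shares of 234. Cst3, a protease inhibitor made by many cells, had 3491 at p8 and 1401 at e12.5, a ratio of 1.86. Sall1 had 574 at p8 and 953 at e12.5, a ratio of 0.449, and Hexa had 941 and 828, a ratio of 0.846. Tyrobp thus lay above the 8 microglia genes with a ratio, and Cst3, Sall1 and Hexa below them.

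Border and peripheral macrophage genes went both ways between p8 and e12.5. Clec12a rested on 1 read in 1 library at e12.5 and had a ratio of shares of 2226, with a counting interval of 399 to 87909. Ccr2 had a base mean of 88.2 at p8 and was listed at 0 at e12.5. Lyve1, Pf4 and Mrc1 had ratios of 0.286, 0.218 and 0.137, beside 0.315 for the median gene. Mrc1, the mannose receptor of border macrophages, had a base mean of 17.5 at p8 and 95.8 at e12.5. The ratio of the p8 pool to the stage pool was 0.609 for Clec12a, a lectin of myeloid cells of the blood, and 0.608 for Ccr2, a monocyte chemokine receptor, beside 0.609 to 0.610 for the neutrophil genes. In summed base mean these 8 genes held 0.00363% at p8 and 0.00122% at e12.5.

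**Figure D4:**
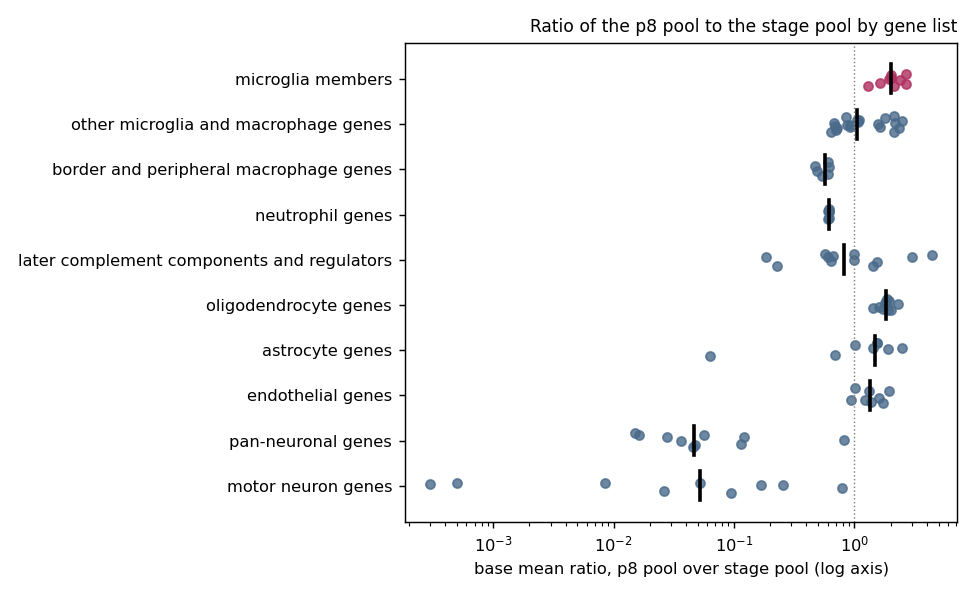
Ratio of base means, p8 pool over stage pool (log axis), for genes whose base mean reached 10 in either pool. Each point is 1 gene, the black bar is the median of its list, and the dotted line marks a ratio of 1. The 9 microglia genes lie from 1.31 to 2.70, while the neutrophil genes lie at 0.609 to 0.610 and the MN genes have a median of 0.0518.

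The ligands of the receptors were given next. CSF1R binds CSF1 and IL-34, CX3CR1 binds the membrane chemokine CX3CL1, and TREM2 binds the apolipoproteins APOE and CLU. Csf1 had a base mean of 518 in the p8 pool and 203 in the stage pool, and Il34 had 46.9 in the p8 pool and 54.0 in the stage pool. At e12.5 the highest of the 3 transcript rows of Csf1 was at 0.334 and Il34 was listed at 0 in its 2 rows, so no ratio is given. Cx3cl1, a gene of neurons, had 129 at p8 and 306 at e12.5, a ratio of shares of 0.313, beside 0.315 for the median gene. Clu had 657 at p8 and 166 at e12.5, a ratio of 2.95. Apoe had 9402 at p8 and 7140.4 in the stage pool, and the highest of its 4 transcript rows had 11.7 at e12.5. Neither of the ligands with 1 transcript row passed 4-fold, while Cx3cr1, the receptor of CX3CL1, had a ratio of 56.1.

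The later complement components and regulators went both ways as well. Of 10 with 1 row and signal in both pools, 4 were at least 4-fold higher at p8 and 2 at least 4-fold lower, with a median ratio of 3.07. Over all genes with 1 row, 11.1% were that much higher and 44% that much lower, with a median of 0.315. C3, the central component that C1q activation leads to, had a base mean of 1846 at p8 and 42.0 at e12.5, a ratio of shares of 32.7, and 0.605 to the stage pool. C3ar1, the receptor for the fragment C3a, had 230.5 at p8 and 9.73 at e12.5, a ratio of 17.7, and 4.44 to the stage pool. Against the stage pool, C3 thus lay just under the neutrophil genes and C3ar1 stood above all 9 microglia genes. C5ar1, the receptor for C5a, had 1115 at p8 and 1749 in the stage pool, and Cd59a, which blocks the membrane attack complex, had 155 at p8 and 99.8 in the stage pool. C1ra and C1s1, whose proteases bind C1q, had 4.25 and 13.5 at p8, or 1.43 and 4.33 per kilobase. Masp1, a protease of the lectin pathway, had 44.9 at p8 and 448 at e12.5, a ratio of 0.0746, and C2 had 1.44 at p8 and 16.7 at e12.5, a ratio of 0.0642. Per kilobase at p8, each of the 3 C1q chains stood above C3, at 359, and above both proteases of the C1 complex.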

How the data were processed

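RNA of FACS-sorted MNs was measured in 18 samples, and the labels gave stage, region and genotype. The authors aligned unique reads to GRCm38 (mm10), used featureCounts for counting and ran DESeq2 in Galaxy. The aligner is HISAT in the submitters' processing notes, and versions are not given in the sources used here. They deposited 5 tables, 4 per gene and 1 per transcript. The only value used from the tables the authors deposited is the base mean, a signal that averages normalized counts over all libraries. The other 5 value columns hold the authors' own comparisons (log2 fold changes, their standard errors, Wald statistics, p-values and adjusted p-values) and were not used. Values per sample are in none of these tables, so no SD, replicate comparison or test between groups is given, and the tests planned for per-sample values were not run. Reads per library could be recovered only for low genes at e12.5, in libraries that carry no group. All depths and levels are means.

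Symbols were matched for 93.0% of gene rows and 99.2% of transcript rows, and 97.5%, 96.9% and 97.3% of the summed base mean of the p8, stage and e12.5 pools lay on rows with a length. The ratio of the p8 to the stage pool and the reads per library were added after the data were seen. Reads were recovered from the 6 single-read steps in low base means of the e12.5 table, and on simulated low genes 94.3% of 300 were recovered. Genes named besides the members are the 3 that stood highest per kilobase at p8 in each list, all ligands, and others picked after their values were seen. Some genes named by this rule are not reported here. The members and the 11 other lists were chosen with earlier results of these data known. Alternatives were other scalings, denominators, lengths and filters. Scripts ran in Python 3.11.15 with pandas 2.3.3, numpy 2.4.6, matplotlib 3.10.9 and scipy 1.17.1. In situ hybridization and chromatin data of the study were not analysed here.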

Additional observations from a re-analysis of the deposited data

How the results depend on the processing

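Every ratio of the microglia genes between the p8 and e12.5 pools stayed above 1 in each alternative run, from 12.52 to 379. The median ratio of 55.7 was 139 with a median of ratios scaling, 106 without the 42 genes of highest base mean in any pool, and 167 with shares among genes with 1 transcript row, an alternative added after the data were seen. With the median of ratios scaling the median 1-row gene was at 0.784. The ratio of summed levels, 60.4, was 47.6 without Csf1r, 65.6 without Tmem119 and 68.3 without C1qb. The members' sum per 1000000 units of length-scaled signal, 1073 at p8, was 905 with the longest transcript, 733 without length scaling and 1771 without the highest genes. In the stage pool it was 478, and 417, 362 and 655 in those alternatives, and at e12.5 it was 20.6, and 12.1 without length scaling. The median percentile was 69.1 in the stage pool and 13.9 at e12.5 over genes whose base mean reached 10, and 59.0 at e12.5 over all genes. The median p8 to stage ratio of 2.03 was 2.52 with shares, also added after the data were seen. The cause of these moves was not tested. No paired analysis was possible because the tables hold only means over all libraries, and leaving out a replicate was not possible for the same reason. Depth limits Aif1 and P2ry12 at e12.5, which rest on 29 and 48 reads.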

Other observations

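Reads per library at e12.5 could also be recovered for other myeloid genes, and they are given as values of libraries with no group. Tyrobp, the adaptor of TREM2, had 1, 10, 12, 3, 7 and 1 reads in libraries 1 to 6, and Fcer1g had 8, 9, 10, 2, 9 and 0. Spi1 had 0, 8, 4, 3, 2 and 0 reads, Ly86, which encodes the partner of the surface protein RP105, had 4, 5, 5, 2, 2 and 0, and Itgb2 had 4, 1, 4, 1, 2 and 0. Library 6, which held 12 reads of P2ry12, thus held 1 read of Tyrobp and 0 of each of the other 4. The ADP receptor gene P2ry13 had 5, 5, 2, 3, 7 and 2 reads and C3ar1 had 13, 13, 14, 4, 9 and 7, so both were present in library 6. These genes were picked because their base means have exactly 1 solution in whole reads.

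Neutrophil transcripts were close to the single read at e12.5. S100a8 had 6 and 3 reads in libraries 4 and 5 and 0 in the others, and Ngp had 1 and 4 reads in libraries 1 and 4 and 0 in the others. At p8 their base means were 41915 and 56279. Over 7 lymphocyte genes the share of the summed base mean was 0.00243% at p8 and 0.000057% at e12.5, and the median ratio to the stage pool was 1.202 over the 5 genes whose base mean reached 10. Cd79a, a chain of the B cell receptor, had 13 reads over the 6 libraries at e12.5.

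Ratios of the p8 pool to the stage pool were also taken for vascular, glial and neuronal genes, beside a median of 2.03 and a range of 1.31 to 2.70 for the microglia genes. Over 10 oligodendrocyte genes the median was 1.84, with a range of 1.43 to 2.32, and the myelin genes Mbp and Mobp had 1.43 and 1.60. Over 8 astrocyte genes the median was 1.48, but the range was wide, from 0.0635 for the glutamate transporter gene Slc1a2 to 2.47 for the connexin gene Gja1. S100b, Gfap and Aldoc had 1.53, 1.89 and 1.43. Over 8 endothelial genes the median was 1.34, with a range of 0.946 to 1.92, and Cldn5, Ly6c1 and Esam had 1.92, 0.946 and 1.23. The B cell genes Cd79a and Ms4a1 had 1.29 and 1.202. Pan-neuronal genes had a median of 0.0466, with 0.0149 for Tubb3, a neuronal tubulin, 0.122 for Nefm and 0.824 for Nefl, both neurofilament genes.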
